A study of Mus musculus with 8 samples.

Results

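The genes described here are fibronectin, the thrombospondins and related matricellular proteins of the mouse thoracic aorta. They were taken as a fixed list of 10 genes (Fn1, Tnc, Postn, Thbs1, Thbs2, Thbs4, Comp, Sparc, Ctgf and Cyr61), and all 10 were found among the 23993 genes of the expression table. Bulk RNA sequencing gave 8 libraries of thoracic aorta from male C57BL/6 mice aged 24 weeks. Of these, 4 were from knockouts (Tsc1fl/fl.Myh11-CreERT2.mT/mG) and 4 from controls (Myh11-CreERT2.mT/mG with wild-type Tsc1). The sample titles call the material thoracic aorta smooth muscle cells, while the protocols in the labels describe frozen aortas crushed whole. Mice of both genotypes carried the tamoxifen-inducible Cre recombinase driven from the smooth muscle gene Myh11 and the mT/mG fluorescent reporter, and both received tamoxifen at 1.5 weeks, so the groups differ by the floxed Tsc1 alleles. Tsc1 encodes hamartin, a brake on the growth kinase mTORC1, and the question is what its loss from smooth muscle cells does to expression in the aorta. Cre acts in cells that use Myh11, other cells of the wall keep Tsc1, and the labels do not say whether animals were pooled, so the p-values measure the spread between these libraries.

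Fibronectin is a large glycoprotein that cells assemble into fibrils through integrin receptors, and other matrix proteins are laid down on it. Matricellular proteins are secreted into the matrix without being its load-bearing parts. They bind collagens, growth factors and integrins and are known in arteries for their response to injury and load. The thrombospondins form multimers that bind calcium, and the CCN proteins Ctgf (CCN2) and Cyr61 (CCN1) are induced by mechanical strain, by YAP and TAZ, and by TGF-beta.

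FPKM scales the fragments of a gene by its transcript length and by the size of the library, so levels can be set side by side between genes. The targeted gene Tsc1 had 3.41 ± 0.315 FPKM in knockouts and 5.03 ± 0.952 FPKM in controls (SD, n = 4 each), without overlap. Transcripts from recombined alleles and from cells without Cre are part of such whole-gene values. Acta2, smooth muscle alpha-actin, ran from 5745 to 6966 FPKM in knockouts and from 7126 to 8223 FPKM in controls, and endothelial Cdh5 and fibroblast Dcn were present in every library, as in a whole vessel wall. Read from the steps between low values, depth was 0.763 to 2.45 times that of control 1 in the other libraries, and the absolute depth is unknown. The second principal component, with 16.6% of the variance, separated libraries 1 and 3 from libraries 2 and 4 within both genotypes. Control 4 stood apart for striated muscle markers, which summed to 258 FPKM there, against 4.93 to 12.0 FPKM in knockouts and 13.2 to 14.0 FPKM in the other controls.

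Of the 10 genes, Sparc, Postn and Fn1 fell in knockout aortas, Thbs2 rose slightly, and Tnc, Comp, Thbs1, Ctgf and Cyr61 did not pass the test. Thbs4, the remaining gene, lay under the level at which genes were tested and was lower in all 4 knockouts than in any control. The falls were to 55.5% of the control mean for Sparc, 47.6% for Postn and 69.6% for Fn1, and Thbs2 reached 124% of it. The test was limma on log2(FPKM + 1), with a call at a Benjamini-Hochberg adjusted p under 0.05 over the 12107 genes that averaged 1 FPKM or more. That test called 32.2% of all genes, 17.1% as higher and 15% as lower, and 33.9% of all tested genes had no overlap between genotypes. The 4 calls among the 9 tested genes are to be read against that share. Of the 9, only Sparc and Postn had no overlap.

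**Figure D1:**
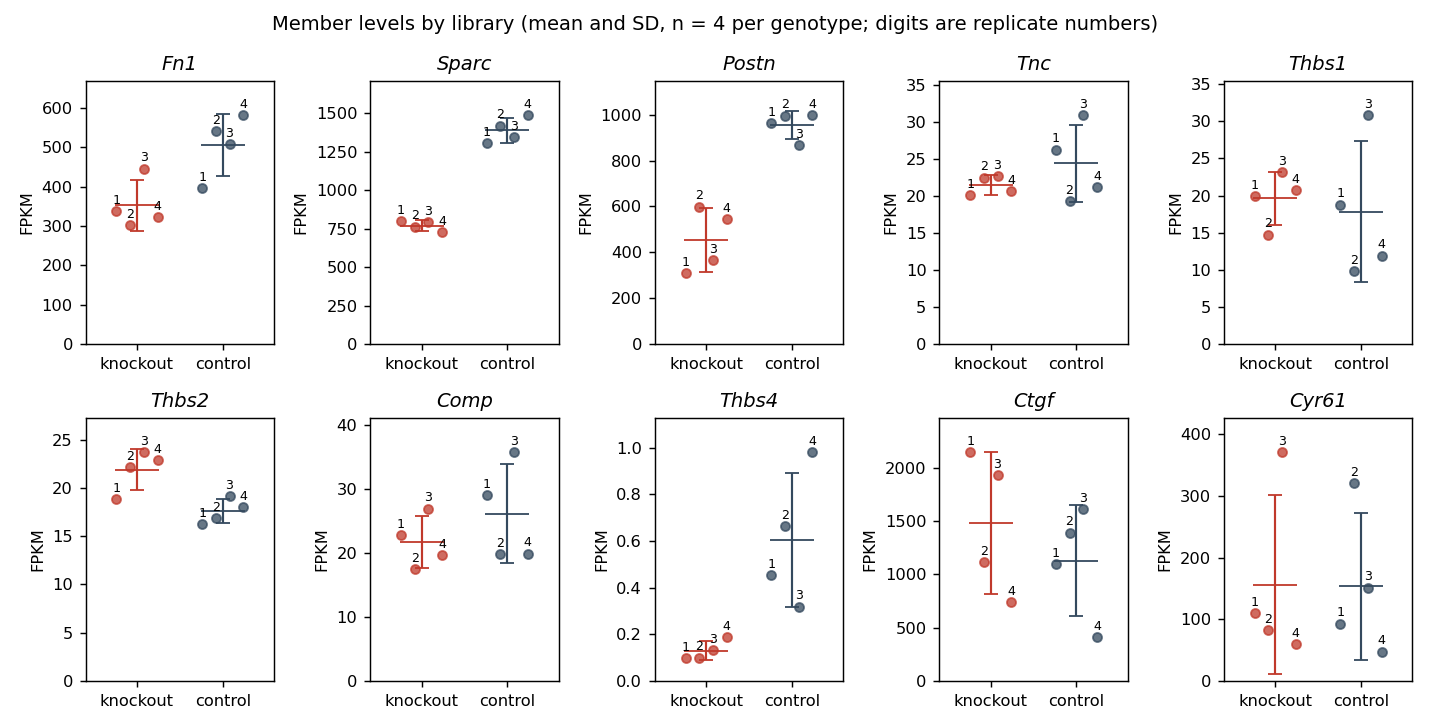
FPKM of each gene in the 4 knockout (left) and 4 control (right) libraries, each panel from 0 on its own scale. Points are libraries numbered by replicate, with the mean and SD. Knockouts lie below all controls for Sparc, Postn and Thbs4, while Ctgf and Cyr61 range 2.91 to 6.77 times from lowest to highest within a genotype.

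The genes spanned a wide range of levels. Ctgf and Sparc stood at ranks 33 and 38 of all genes by their mean over the 8 libraries, Postn at rank 86 and Fn1 at rank 166. In knockouts the order of mean levels was Ctgf, Sparc, Postn, Fn1 and Cyr61, then Thbs2, Comp, Tnc and Thbs1, with Thbs4 last. In controls it was Sparc, Ctgf, Postn, Fn1 and Cyr61, then Comp, Tnc, Thbs1 and Thbs2, again with Thbs4 last. Thbs2, Comp, Tnc and Thbs1, all near 20 FPKM, had ranges that overlapped from each to the next in both orders, and so did Ctgf with Sparc. Postn overlapped with Fn1, and Fn1 with Cyr61, in knockouts, while Postn overlapped with Ctgf in controls. Cyr61 was separated from the next lower gene in both genotypes, and Thbs4 from all others. The sum over the 10 genes ran from 2476 to 4003 FPKM in knockouts and from 3593 to 4736 FPKM in controls.

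Sparc encodes osteonectin, a collagen-binding glycoprotein that takes part in collagen assembly (chromosome 11, 55394500 to 55423183 in mm10, minus strand). It had 798, 763, 794 and 727 FPKM in knockouts 1 to 4, against 1304, 1420, 1345 and 1486 FPKM in controls 1 to 4. Each genotype was tight and the groups were far apart. Sparc averaged 771 ± 32.8 FPKM in knockouts and 1389 ± 80.7 FPKM in controls, a log2 difference of -0.85 (SE 0.06, limma adjusted p = 4.35e-05). Its spread within genotypes on the log2 scale exceeded that of 13.3% of tested genes. Over the alternative fits the difference ran from -0.96 to -0.50, with the call kept in each.

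Postn encodes periostin, which binds collagen and fibronectin and promotes cross-linking of the matrix (chromosome 3, 54361109 to 54391037, plus strand). It had 309, 599, 368 and 543 FPKM in knockouts 1 to 4 and 962, 996, 866 and 997 FPKM in controls 1 to 4. Knockouts 1 and 3 were the lowest of the 8 libraries, knockouts 2 and 4 lay above them, and all were below every control. The averages were 455 ± 139 FPKM in knockouts and 955 ± 61.8 FPKM in controls, with a log2 difference of -1.12 (SE 0.20, limma adjusted p = 0.00295). Within the odd-numbered libraries the difference was -1.43 and within the even-numbered ones -0.80. The test of that gap, a limma interaction term, did not pass (adjusted p = 0.0811). It passed for 1.62% of the tested genes and for none of the 9 genes tested here, 5 of which had an unadjusted p under 0.05. The share of all tested genes with such an unadjusted p is not given here, so that count cannot be read as a trait of these genes.

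Fn1 encodes fibronectin (chromosome 1, 71585520 to 71653200, minus strand). It had 337, 303, 446 and 323 FPKM in knockouts 1 to 4, against 397, 541, 507 and 581 FPKM in controls 1 to 4. Knockout 3 lay above control 1, and the other 3 knockouts lay below all controls. Fn1 averaged 352 ± 63.8 FPKM in knockouts and 507 ± 79.0 FPKM in controls, with a log2 difference of -0.52 (SE 0.15, limma adjusted p = 0.0249). It no longer passed with quantile normalization (-0.34), among the odd-numbered libraries (-0.21), or when control 2, 3 or 4 or knockout 1, 2 or 4 was left out (-0.52 to -0.45, adjusted p from 0.0561 to 0.067). The table has 1 value per gene and does not separate the spliced forms of fibronectin.

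Tnc encodes tenascin-C, a hexameric glycoprotein of remodelling matrix (chromosome 4, 63959785 to 64047015, minus strand). It had 20.1, 22.5, 22.8 and 20.7 FPKM in knockouts 1 to 4 and 26.3, 19.3, 30.9 and 21.3 FPKM in controls 1 to 4. The knockouts sat close together inside the range of the controls, where libraries 1 and 3 were the higher ones. The log2 difference was -0.16 with a 95% interval from -0.46 to 0.15 (limma adjusted p = 0.403), and its sign turned within the even-numbered libraries (0.088).

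**Figure D2:**
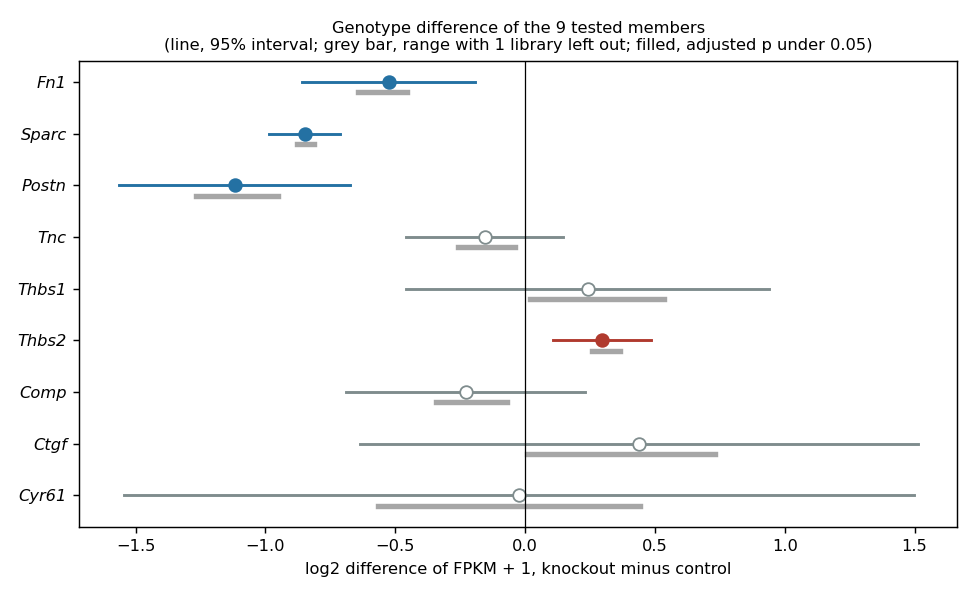
Log2 difference of FPKM + 1, knockout minus control, for the 9 tested genes. Lines are 95% intervals of the limma fit, grey bars the range when 1 library is left out, and filled points passed at an adjusted p under 0.05. Sparc, Postn and Fn1 lie left of 0, Thbs2 right of it, and the intervals of Ctgf (-0.63 to 1.51) and Cyr61 (-1.54 to 1.50) are the widest of the 9.

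The thrombospondins did not move together. Thbs1 and Thbs2 are the trimeric members, which bind the receptors CD47 and CD36 and restrain blood vessel growth, and Thbs1 can activate latent TGF-beta. Thbs2 (chromosome 17, 14665500 to 14694235, minus strand) had 18.8, 22.1, 23.7 and 22.9 FPKM in knockouts 1 to 4 and 16.3, 16.9, 19.2 and 18.0 FPKM in controls 1 to 4. Knockout 1 fell among the controls and the other 3 knockouts were above them. The averages were 21.9 ± 2.15 FPKM in knockouts and 17.6 ± 1.27 FPKM in controls, with a log2 difference of 0.30 (SE 0.08, limma adjusted p = 0.0252). It no longer passed among the odd-numbered libraries (0.24, adjusted p = 0.276), without control 1 or 2, or without knockout 2, 3 or 4 (0.26 to 0.29, adjusted p from 0.0592 to 0.0675).

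Thbs1 (chromosome 2, 118111876 to 118127133, plus strand) had 19.9, 14.7, 23.1 and 20.7 FPKM in knockouts 1 to 4 and 18.8, 9.85, 30.8 and 11.9 FPKM in controls 1 to 4. The controls ranged 3.12 times from lowest to highest and enclosed all knockouts. The log2 difference was 0.24, with a 95% interval from -0.46 to 0.94 (limma adjusted p = 0.584), and turned to -0.16 within the odd-numbered libraries. Platelets also make thrombospondin-1. The 7 platelet markers summed to 21.5 to 31.7 FPKM in knockouts and 34.4 to 46.3 FPKM in controls. The 3 that could be tested (Pf4, Ppbp and Gp1bb) fell, against 15% of all tested genes called lower. Most endothelial, contractile smooth muscle and fibroblast markers fell as well, as given below. The part of platelets in the Thbs1 values was not tested.

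Comp and Thbs4 are the pentameric members, known from cartilage and tendon and from muscle and tendon. Comp (chromosome 8, 70373558 to 70382066, plus strand) had 22.8, 17.5, 26.9 and 19.6 FPKM in knockouts 1 to 4, against 28.9, 19.8, 35.7 and 19.9 FPKM in controls 1 to 4. Libraries 1 and 3 were above libraries 2 and 4 in both genotypes. Knockouts 2 and 4 were below all controls, and knockouts 1 and 3 lay within the range of the controls. The log2 difference was -0.23 with a 95% interval from -0.69 to 0.23 (limma adjusted p = 0.418). Of 13 tendon and cartilage markers, 5 reached the tested level. Of these, Scx, Fmod and Acan fell and Sox9 rose, so that 80% were called, against 32.2% of all tested genes. The cartilage genes Col2a1, Col9a1, Col9a2 and Matn1 were at or below 0.229 FPKM in every library. Chad, tested and not called, ran from 0.848 to 3.65 FPKM and Hapln1 from 0.2 to 0.713 FPKM.

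Thbs4 (chromosome 13, 92751590 to 92794818, minus strand) had 0.0993, 0.0996, 0.133 and 0.188 FPKM in knockouts 1 to 4 and 0.455, 0.663, 0.319 and 0.982 FPKM in controls 1 to 4. All knockouts were below all controls, at a level that few fragments can produce. The mean was 0.13 ± 0.0417 FPKM in knockouts and 0.605 ± 0.288 FPKM in controls (SD, n = 4 each), and a two-sided exact permutation test gave p = 0.0286, the smallest that 4 against 4 libraries allow. Of the 6494 genes detected under 1 FPKM, 10.5% likewise had no overlap between genotypes. With no filter on level limma gave a log2 difference of -0.49 (adjusted p = 0.0187, with 21.3% of 18601 genes called). Control 4, with the striated muscle markers, also had the highest Thbs4, and without it the log2 difference was -0.38. The size on the log2 scale depends on the value added before the logarithm, and was -1.54 with 0.1 in place of 1.

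The CCN genes were the least even of the list. Ctgf (Ccn2, chromosome 10, 24595442 to 24598683, plus strand) had 2148, 1116, 1929 and 738 FPKM in knockouts 1 to 4, against 1099, 1391, 1613 and 410 FPKM in controls 1 to 4. Library 4 was the lowest in both genotypes, and knockouts 1 and 3 were above all controls. Ctgf averaged 1483 ± 666 FPKM in knockouts and 1128 ± 523 FPKM in controls (SD, n = 4 each). The log2 difference was 0.44 with a 95% interval from -0.63 to 1.51 (limma adjusted p = 0.511), and it was 0.0086 without control 4.

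Cyr61 (Ccn1, chromosome 3, 145646976 to 145649981, minus strand) had 109, 82.7, 371 and 59.6 FPKM in knockouts 1 to 4 and 92.9, 321, 151 and 47.4 FPKM in controls 1 to 4. Knockout 3 and control 2 were the high libraries, and the remaining values of both genotypes lay between 47.4 and 151 FPKM. The means were 156 ± 145 FPKM in knockouts and 153 ± 120 FPKM in controls (SD, n = 4 each), with a log2 difference of -0.024 and a 95% interval from -1.54 to 1.50 (limma adjusted p = 0.981). That interval includes a log2 difference of 1 in either direction. The spread within genotypes exceeded that of 98.6% of tested genes for Ctgf and 99.1% for Cyr61. Ctgf stood at 19.6, 13.5, 5.2 and 12.4 times Cyr61 in knockouts 1 to 4 and at 11.8, 4.33, 10.7 and 8.64 times Cyr61 in controls 1 to 4, so the ratio was lowest where Cyr61 peaked.

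Cyr61 is itself induced within minutes by serum and strain, and immediate early genes were high in the same libraries. Of 20 such genes tested, 17 had their highest knockout value in knockout 3, 19 had their highest control value in control 2, and 16 had both, against 4.23% of all tested genes. Fos (an AP-1 subunit) had 8.05, 6.04, 154 and 4.29 FPKM in knockouts 1 to 4 and 4.13, 24.4, 9.03 and 10.1 FPKM in controls 1 to 4. Atf3, a stress-induced factor, had 9.26, 6.46, 35.1 and 5.34 FPKM in knockouts and 9.22, 134, 17.0 and 4.05 FPKM in controls. Ctgf did not share this pattern, with its highest values in knockout 1 and control 3, and Thbs1 peaked in knockout 3 and control 3. Of the 9 tested members, 6 (66.7%) had their highest knockout value in knockout 3, against 22% of all tested genes. In control 2, 1 of the 9 (11.1%) had its highest control value, against 22.4% of all tested genes. Fos and Atf3 were chosen as examples after their values were seen. Between genotypes limma called 0 of the 20 genes as higher (0 also at an unadjusted p under 0.05). It called 1 as lower (4 unadjusted), Myc, with 1.22 ± 0.28 FPKM in knockouts and 1.96 ± 0.412 FPKM in controls. Among all tested genes limma called 17.1% as higher and 15% as lower, and the unadjusted shares are not given here. Without knockout 3 and control 2, a setting chosen after seeing the data, the log2 difference of Cyr61 was -0.10, Sparc, Postn and Fn1 kept their calls and Thbs2 lost its call (0.24).

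**Figure D3:**
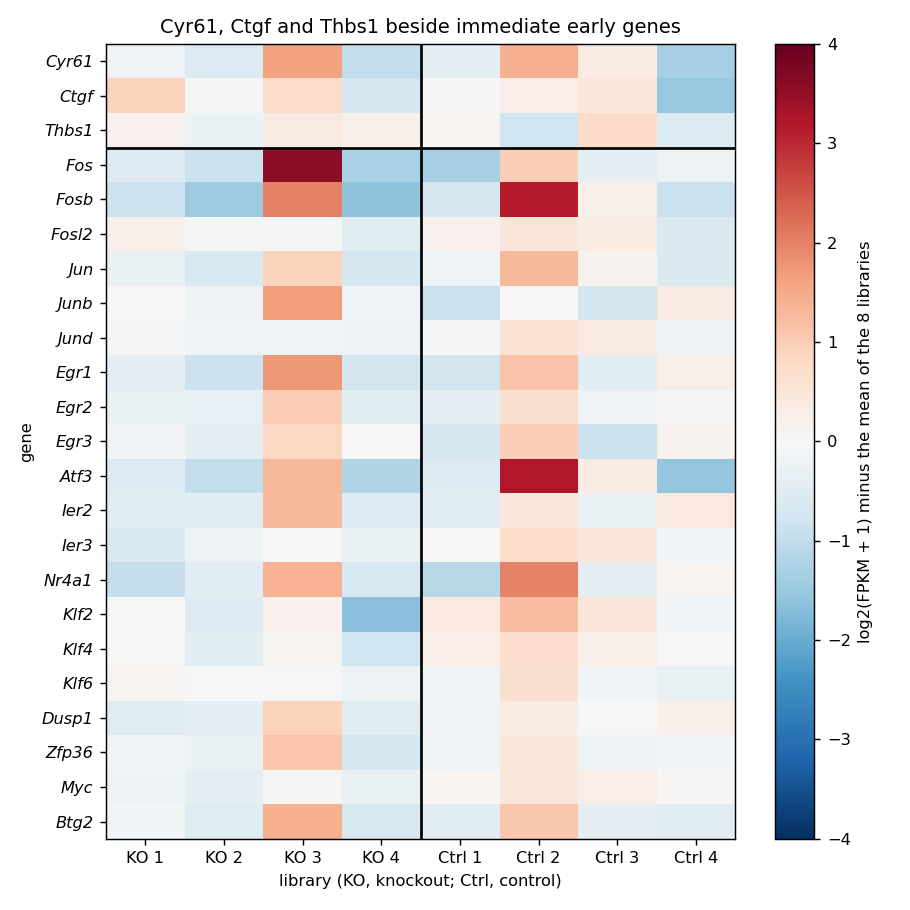
Log2(FPKM + 1) minus the mean of the 8 libraries for Cyr61, Ctgf and Thbs1 (top rows) and 20 immediate early genes, with knockout libraries left and control libraries right. Cyr61 and most immediate early genes are highest in KO 3 and Ctrl 2, where Fos reached 154 FPKM and Atf3 134 FPKM.

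The reference sequences just before and at the gene starts are given for Sparc and Postn, which both fell, for Thbs2, which rose, and for Cyr61 with its wide spread. Windows of 300 bases (250 before and 50 after the start) come from RefSeq on GRCm38.p6, the same assembly as mm10. They were found for 6 of the 10 genes. The Sparc window is set on the RefSeq start, which lies inside the longer GENCODE gene given above, so it is not the sequence before the GENCODE start. The windows lie at chr11:55420031-55420330 (Sparc, minus strand), chr3:54360857-54361156 (Postn, plus strand), chr17:14694213-14694512 (Thbs2, minus strand) and chr3:145649936-145650235 (Cyr61, minus strand). They are written 5′ to 3′ along the gene, and capitals mark matches on either strand to the motifs searched.
Sparc: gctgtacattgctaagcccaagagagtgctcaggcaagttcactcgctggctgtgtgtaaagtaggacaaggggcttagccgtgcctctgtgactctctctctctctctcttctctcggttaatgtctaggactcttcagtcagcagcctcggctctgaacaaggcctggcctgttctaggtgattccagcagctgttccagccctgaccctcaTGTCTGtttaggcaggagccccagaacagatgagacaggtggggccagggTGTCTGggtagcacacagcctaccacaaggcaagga
Postn: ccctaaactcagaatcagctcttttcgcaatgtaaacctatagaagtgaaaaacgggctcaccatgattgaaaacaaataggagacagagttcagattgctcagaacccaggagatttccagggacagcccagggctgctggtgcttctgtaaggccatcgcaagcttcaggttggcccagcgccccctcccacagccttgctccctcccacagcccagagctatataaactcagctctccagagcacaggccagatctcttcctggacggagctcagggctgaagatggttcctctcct
Thbs2: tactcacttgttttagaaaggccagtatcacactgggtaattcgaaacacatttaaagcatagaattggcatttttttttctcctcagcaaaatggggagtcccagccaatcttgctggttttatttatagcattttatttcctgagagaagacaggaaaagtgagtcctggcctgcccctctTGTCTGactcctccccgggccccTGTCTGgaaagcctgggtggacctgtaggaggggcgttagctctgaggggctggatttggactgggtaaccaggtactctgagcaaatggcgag
Cyr61: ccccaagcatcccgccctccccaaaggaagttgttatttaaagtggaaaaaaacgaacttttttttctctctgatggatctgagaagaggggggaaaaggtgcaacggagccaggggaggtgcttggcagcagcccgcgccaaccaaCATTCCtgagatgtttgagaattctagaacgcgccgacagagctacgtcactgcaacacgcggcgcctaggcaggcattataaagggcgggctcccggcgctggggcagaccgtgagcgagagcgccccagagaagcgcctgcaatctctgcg
The motifs were GGAATG for TEAD factors, the partners of YAP and TAZ, CAGACA for SMAD proteins, TGANTCA for AP-1, TGACGTCA for CREB and the CArG box of serum response factor, none of which overlap in these 4 windows. Cyr61 held 1 TEAD match starting at -103, and 14.7% of all 32851 windows held at least 1. Sparc held 2 SMAD matches (from -36 and 15) and so did Thbs2 (from -67 and -44), a motif found in 21% of windows. Postn held none of the motifs here or at its other annotated start. Of the windows not printed, Thbs4 held 2 TEAD matches and 1 SMAD match and Tnc 1 or 2 SMAD matches depending on the start. AP-1 (7.81% of windows), CREB (1.79%) and CArG (1.63%) had no match in any of these windows.

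Other matricellular genes changed in both directions. Of 18 listed, 14 were tested, 2 rose, 6 fell and 6 did not pass, so that 57.1% were called, against 32.2% of all tested genes. Their median log2 difference was -0.36, against 0.0065 over all tested genes. Spp1 (osteopontin) had 61.3, 18.4, 63.6 and 15.5 FPKM in knockouts 1 to 4, against 0.924, 1.51, 0.492 and 2.56 FPKM in controls 1 to 4 (log2 difference 3.90, limma adjusted p = 6.02e-04). Sparcl1, or hevin, a close relative of Sparc, had 1023, 1294, 1529 and 1939 FPKM in knockouts and 279, 304, 660 and 259 FPKM in controls (2.02, limma adjusted p = 0.00145). In controls Sparc was the more abundant of this pair in every library, and in knockouts Sparcl1 was.

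Those that fell included Fstl1, a follistatin-like member of the SPARC family, with 312 ± 20.9 FPKM in knockouts and 566 ± 128 FPKM in controls (SD, n = 4 each; log2 difference -0.83). Nov, the CCN protein CCN3, averaged 446 ± 22.0 FPKM in knockouts and 798 ± 149 FPKM in controls (-0.82), while its relatives Ctgf and Cyr61 did not pass. Matn2 (matrilin-2) also fell, with 5.0 ± 0.571 FPKM in knockouts and 9.15 ± 0.948 FPKM in controls (-0.76). Thbs3, a pentameric thrombospondin named because of its family after its values were seen, had 19.5 ± 1.04 FPKM in knockouts and 26.5 ± 2.27 FPKM in controls (-0.42, limma adjusted p = 0.00265), without overlap.

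**Figure D4:**
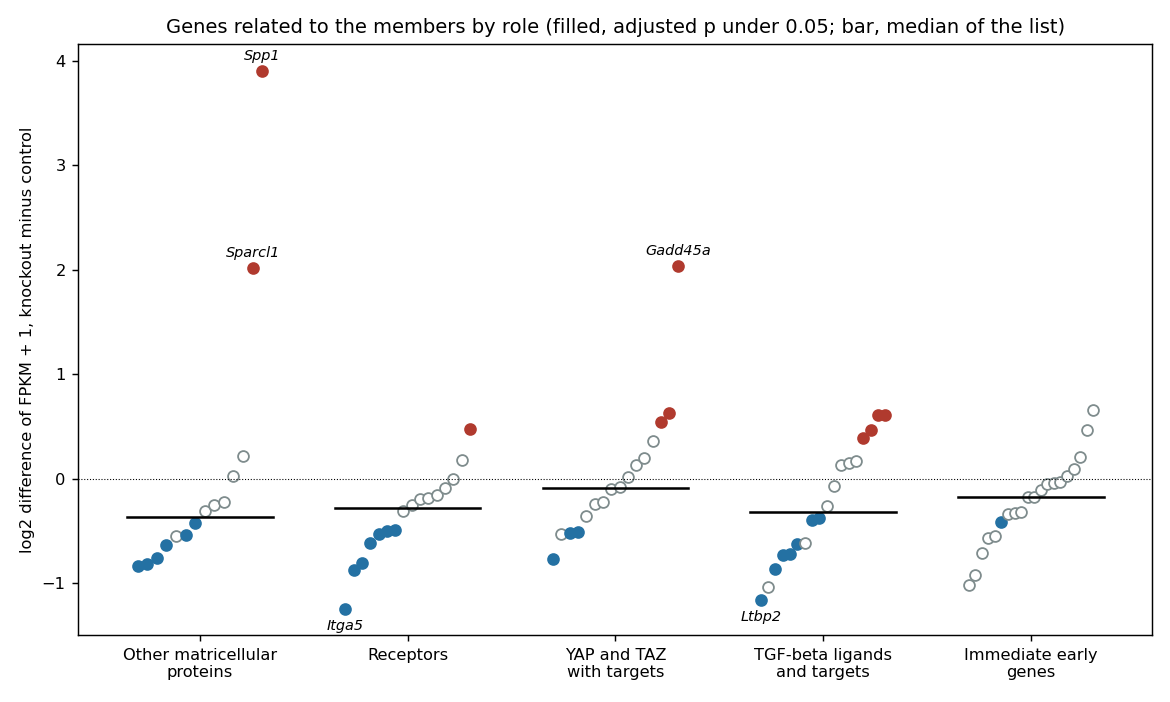
Log2 difference of FPKM + 1, knockout minus control, for tested genes of 5 lists related to the 10 genes. Filled points passed at an adjusted p under 0.05 and bars are list medians. Spp1 (3.90), Gadd45a (2.04) and Sparcl1 (2.02) stand above the rest and Itga5 (-1.24) below.

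Receptors were tested in full, with 16 of 16 genes, of which 1 rose, 7 fell and 8 did not pass (median -0.28), so that 50% were called, against 32.2% of all tested genes. Itga5, the alpha chain of the main fibronectin receptor, had 68.0, 110, 72.2 and 92.8 FPKM in knockouts 1 to 4 and 167, 248, 188 and 205 FPKM in controls 1 to 4, a log2 difference of -1.24 (limma adjusted p = 8.75e-04). All knockouts were below all controls. Itgb3, the beta chain shared by receptors for vitronectin and fibrinogen, had 24.3 ± 2.63 FPKM in knockouts and 45.4 ± 6.67 FPKM in controls (-0.87), and Sdc4, a syndecan that helps integrins bind fibronectin, had 52.0 ± 3.62 FPKM in knockouts and 92.3 ± 15.2 FPKM in controls (-0.80). Cacna2d1, a calcium channel subunit that binds thrombospondins (-0.61), and Stab1, a scavenger receptor that takes up SPARC (-0.52), fell as well. Itgb5, a beta chain that pairs with alpha-v, was the gene that rose, with 383 ± 34.3 FPKM in knockouts and 275 ± 24.0 FPKM in controls (0.48).

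YAP, TAZ, their TEAD partners and their target genes changed in both directions. Of 16 tested, 3 rose, 3 fell and 10 did not pass (median -0.086). These 6 calls are 37.5% of the list, near the 32.2% called among all tested genes, so the count says nothing about the list. Gadd45a, also induced by stress, had 22.5 ± 13.2 FPKM in knockouts and 4.17 ± 1.61 FPKM in controls (log2 difference 2.04). Axl, a receptor tyrosine kinase (0.63), and Tead2 (0.54) rose, while the activin antagonist gene Fstl3 (-0.77), Tead3 (-0.52) and F3, tissue factor (-0.51), fell.

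Genes of TGF-beta signalling changed in both directions, with 4 higher, 7 lower and 7 not called among 18 tested (median -0.32), so that 61.1% were called, against 32.2% of all tested genes. The ligand genes Tgfb1 and Tgfb3 went opposite ways. Tgfb1 had 44.2 ± 3.88 FPKM in knockouts and 29.6 ± 9.09 FPKM in controls (log2 difference 0.61), and Tgfb3 had 42.5 ± 6.17 FPKM in knockouts and 71.2 ± 12.7 FPKM in controls (-0.73). The receptor genes Tgfbr1 (0.39) and Tgfbr2 (0.46) and the corepressor gene Tgif1 (0.61) rose. Ltbp2, a fibrillin-like matrix protein (-1.15), Ltbp1, which stores latent TGF-beta in the matrix (-0.72), the collagen gene Col1a1, also a fibroblast marker (-0.86), and the pseudoreceptor gene Bambi (-0.62) fell.

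Marker genes of several cell types of the wall moved with genotype beside Sparc, Postn and Fn1, and their counts are to be read against the 15% of all tested genes that were called lower. Adventitial fibroblast markers summed to 1906 to 2454 FPKM in knockouts and 2771 to 3452 FPKM in controls, with 7 of 12 lower in limma and 0 higher (1 higher at an unadjusted p under 0.05). Contractile smooth muscle markers summed to 15249 to 20673 FPKM in knockouts and 23815 to 24531 FPKM in controls, with 8 of 12 lower. Endothelial markers summed to 162 to 227 FPKM in knockouts and 280 to 373 FPKM in controls, with 8 of 11 lower. Macrophage markers overlapped, with sums of 191 to 261 FPKM in knockouts and 223 to 315 FPKM in controls and 0 of 9 called by limma or at an unadjusted p under 0.05. In bulk tissue fewer cells of a type and less RNA per cell cannot be told apart, and the part of these cell types in the falls was not tested.

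The genes whose profile over the 8 libraries came closest to each called gene were found by the root mean square difference of mean-centred log2(FPKM + 1), over the 12107 tested genes. They were Speg, Six5 and D630003M21Rik for Sparc (0.0717 to 0.0779), Nhsl2, Itga1 and Fgfr2 for Postn (0.0796 to 0.121), Snhg8, Pla2g4b and Pmf1 for Fn1 (0.0979 to 0.127), and Mcm5, Vps13d and Rbm19 for Thbs2 (0.0451 to 0.0555). Itga1, a collagen-binding integrin chain, had 13.8 ± 3.71 FPKM in knockouts and 28.8 ± 1.13 FPKM in controls (SD, n = 4 each). None of these 12 genes was among the 10 described.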

How the data were processed

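RNA of mouse thoracic aortas was sequenced as 8 libraries, 4 per genotype. Per the labels' protocols, frozen aortas were crushed whole, and polyA selection started from 500 ng of RNA of RIN above 7. The deposited values are FPKM per gene and library. Per the submitters' processing notes, the tools include TopHat2, Cufflinks and Cuffdiff and the build is mm10. No source used here gives versions, annotation or strand setting. Transcripts on the opposite strand overlap exons of Fn1, Tnc, Thbs1 and Ctgf in GENCODE M21, the source of gene coordinates, and without a strand setting their reads cannot be told apart.

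FPKM were used as deposited. Genes averaging 1 FPKM or more were fitted as log2(FPKM + 1) with limma 3.58.1 in R 4.3.3 (eBayes with trend, genotype as the only term, two-sided). This scale understates changes of genes with low values. The code was tested on simulated data. Thbs4, under that level, had an exact permutation test in scipy 1.17.1. Alternatives were another pseudocount, no filter, other scalings, library weights, a replicate block, odd or even number, and leaving out libraries. The members, gene lists and tests were chosen with earlier results of these data known. Named genes are the 10 members, Tsc1 and 3 genes closest in profile to each called member. Up to 5 called genes per related list were named by size of difference, and all where 5 or fewer were called in a direction. Genes of cell type marker lists were also named, called or not. Fos, Atf3 and Thbs3 were named after their values were seen. FPKM give no absolute depth, so no counting interval could be set. Motifs were searched on both strands.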

Additional observations from a re-analysis of the deposited data

Results flagged for a closer look

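Cyr61 in knockouts had 1 library far from the others. Knockout 3 had 371 FPKM, against 109, 82.7 and 59.6 FPKM in knockouts 1, 2 and 4, and its gap to the nearest of them took 0.84 of the range of the group, above Dixon's 95% critical value for 4 samples. Of 22 groups examined this way (10 members and Tsc1, each in 2 genotypes), it was the 1 past that value. Chance gives about 1 in 20 where values are normally distributed. The gap was taken on FPKM and not on the log2 scale of the other tests, so the flag depends on that scale. Most immediate early genes were also highest in knockout 3 among knockouts. Their part in the Cyr61 value was not tested.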

How the results depend on the processing

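Sparc and Postn kept direction and call in all 18 alternatives (log2 differences from -0.96 to -0.50 and from -1.43 to -0.80). Fn1 kept its direction and lost its call with quantile normalization (-0.34), within odd-numbered libraries (-0.21) and in 6 of the 8 fits that left out 1 library (-0.64 to -0.45 over all 8). Thbs2 lost its call within odd-numbered libraries (0.24) and without knockout 3 and control 2 (0.24). It also lost its call in 5 of the 8 (0.26 to 0.36 over all 8). The number of members called higher was 0 in the fits where Thbs2 lost its call (0 to 1 with 1 library left out). Signs turned for Tnc within even-numbered libraries (0.088), for Thbs1 within odd-numbered libraries (-0.16) and without knockout 3 and control 2 (-0.063), and for Cyr61 with quantile normalization (0.057), within odd-numbered libraries (0.76) and with 1 library left out (-0.57 to 0.44). Thbs4 differed by -1.54 with a pseudocount of 0.1, by -0.58 to -0.38 with 1 library left out, and by -0.47 without knockout 3 and control 2, where so few libraries allow no p under 0.0571 and 0.1. The cause of these changes was not tested.

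Without knockout 3 and control 2, chosen after seeing the data, 1095 genes were lower and 1287 higher over all tested genes (1819 and 2074 with all libraries), 5 receptor genes were called in place of 8 and 2 immediate early genes in place of 1, with fewer samples in the fit. Within even-numbered libraries 7 TGF-beta genes were called in place of 11, and 3 immediate early genes. That last count was 0 to 3 with 1 library left out.

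Libraries of the 2 genotypes share replicate numbers, but deviations of same-numbered libraries correlated at 0.0656 to 0.173 across genes, and knockout 1 correlated more with control 3 (0.149), so the numbers were not taken as pairs. With the replicate block, log2 differences were those of the unblocked fit by construction (Sparc -0.85, Postn -1.12, Fn1 -0.52, Thbs2 0.30), no member changed its call, and 3 immediate early genes were called. Leaving out genes named as small RNAs, FPKM summed to 451961 to 466783 per library in knockouts and 481940 to 490054 in controls. With those genes, controls 1, 2 and 3 reached 753105, 937271 and 593264. The part of these totals in the differences was not tested. Scaling moved the median of all genes by less than 0.1 on the log2 scale. Single members moved more with quantile normalization, to -0.50 for Sparc, -0.86 for Postn, -0.34 for Fn1 and 0.76 for Ctgf (0.44 in the main fit). Thbs2 stayed near its main value, at 0.28. Low values such as Thbs4 may rest on few fragments. The number of fragments and the precision of these values are unknown.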
